A study of Homo sapiens with 72 samples.

Results

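Untreated NALM6 and REH cells were compared for dimethylation of lysine 4 of histone H3 (H3K4me2) by Cut&Tag, in which a transposase tethered to an antibody cuts the DNA beside the mark. The comparison uses 6 of the 72 libraries of the series, 3 from each line, and no agent had been given to either line. NALM6 and REH are established human lines of B-precursor acute lymphoblastic leukemia, and each stands for 1 leukemia only. The labels do not say whether the replicates were separate cultures, so the p-values below measure only the spread between these libraries. Peaks had been called in each library separately with SEACR, which keeps stretches of signal above a threshold and gives the signal summed over each stretch. Overlapping peaks were merged into 18901 regions on chromosomes 1 to 22 and X (hg38), of which 13515 (71.5%) reached within 1 kb of an annotated gene start and 5386 (28.5%) did not. The second class is called distal here.

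H3K4me2 is laid down by the MLL/SET1 family of methyltransferases. It marks active and poised promoters together with enhancers, whereas H3K4me3 is concentrated at promoters and H3K27me3 is the Polycomb mark of silenced genes. A distal H3K4me2 peak is therefore often read as a candidate enhancer, although the mark alone does not show activity. Both lines are arrested at an early stage of B cell development, at which PAX5, EBF1 and TCF3 run the lineage program and the RAG and VPREB genes serve the assembly of the pre-B cell receptor. NALM6 is known to carry an IGH::DUX4 fusion and REH an ETV6::RUNX1 fusion.

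The libraries were not equal in depth or in the number of peaks. NALM6 had 9187 and 11657 peaks in replicates 2 and 3 (23.04 and 8.24 M mapped reads), and REH had 17778, 14001 and 13520 peaks (18.8, 15.4 and 13.7 M). NALM6 replicate 1 carries another scaling of the signal, has 7130 shorter peaks and none on chromosome X, and was used for presence only. The level of a region in a library is given below as the total signal of its peaks divided by the median of that library over the regions called in all 5 remaining libraries. On this scale the weakest peak called stood at 0.522 and 0.385 in the NALM6 libraries and at 0.177, 0.291 and 0.296 in the REH libraries. A region could thus be called in REH at a level at which NALM6 gave no peak, and a missing call is not the absence of the mark. The NALM6 libraries correlated with each other at 0.96 over the regions called in all 5, the REH libraries at 0.97 to 0.98, and the libraries of different lines at 0.76 to 0.80.

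Promoters of genes that came to differ between the lines are shown first, as the 250 bases before the RefSeq start on the strand of the gene (GRCh38.p14), with each CG in capitals. Of the 28 genes named by their start regions for the size of the difference or level, 19 matched a RefSeq promoter by symbol. F2RL3 (chr19:16888749-16888998, plus strand) had the largest difference toward NALM6 and holds 9 CG. B3GNT7 (chr2:231395460-231395709, plus strand) was called in NALM6 only and holds 28 CG. The ERG sequence (chr21:38498478-38498727, minus strand) is that of an internal promoter, lies in the start region that was much higher in REH and holds 3 CG. KCNN1 (chr19:17966857-17967106, plus strand) lies in a region called in REH only and holds 24 CG.
F2RL3: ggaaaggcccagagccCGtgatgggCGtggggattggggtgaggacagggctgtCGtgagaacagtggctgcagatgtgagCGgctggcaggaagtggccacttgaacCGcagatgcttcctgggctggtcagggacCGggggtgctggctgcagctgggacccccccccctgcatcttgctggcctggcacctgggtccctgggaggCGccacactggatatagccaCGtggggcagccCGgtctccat
B3GNT7: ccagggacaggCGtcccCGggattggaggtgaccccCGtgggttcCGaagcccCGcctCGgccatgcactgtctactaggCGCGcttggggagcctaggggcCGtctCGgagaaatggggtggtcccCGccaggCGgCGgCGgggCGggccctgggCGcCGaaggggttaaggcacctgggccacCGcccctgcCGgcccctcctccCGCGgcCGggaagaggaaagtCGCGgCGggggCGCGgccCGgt
ERG: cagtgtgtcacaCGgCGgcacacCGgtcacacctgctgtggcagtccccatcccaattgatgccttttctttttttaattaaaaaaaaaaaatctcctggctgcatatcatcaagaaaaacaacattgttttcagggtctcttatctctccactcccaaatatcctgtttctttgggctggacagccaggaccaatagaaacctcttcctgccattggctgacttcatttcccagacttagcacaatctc
KCNN1: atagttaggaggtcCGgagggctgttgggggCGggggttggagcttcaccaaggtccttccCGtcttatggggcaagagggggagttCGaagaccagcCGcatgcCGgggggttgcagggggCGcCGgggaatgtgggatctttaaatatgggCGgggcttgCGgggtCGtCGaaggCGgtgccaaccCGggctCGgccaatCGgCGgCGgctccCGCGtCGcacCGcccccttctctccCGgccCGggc

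For distal regions, 160 bases around an E-box are shown from 2 of the strongest NALM6-only regions and 3 of the strongest REH-only regions, on the plus strand (hg38), with the letters CAGGTG or CACCTG in capitals. This is the E-box bound by E2A proteins, and its share among the regions is given further on. NXN (chr17:850106-850265) and KDM4B (chr19:5129025-5129184) come from regions called in NALM6 only. ZFP36L2 (chr2:43195079-43195238), ELFN1 (chr7:1647894-1648053) and ETS2 (chr21:38770658-38770817) come from regions called in REH only. Each is named by the nearest protein-coding start, and the windows were placed on the motif, so that they show where it lies and not how common it is.
NXN: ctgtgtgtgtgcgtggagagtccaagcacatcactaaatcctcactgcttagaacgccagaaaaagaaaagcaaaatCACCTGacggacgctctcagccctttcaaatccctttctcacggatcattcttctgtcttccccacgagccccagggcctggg
KDM4B: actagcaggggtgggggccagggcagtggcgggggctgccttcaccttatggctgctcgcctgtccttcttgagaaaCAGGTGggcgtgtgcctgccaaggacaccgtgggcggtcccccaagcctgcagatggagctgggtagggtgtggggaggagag
ZFP36L2: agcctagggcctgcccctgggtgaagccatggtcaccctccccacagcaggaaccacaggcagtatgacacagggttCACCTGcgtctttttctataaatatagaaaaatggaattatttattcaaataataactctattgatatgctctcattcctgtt
ELFN1: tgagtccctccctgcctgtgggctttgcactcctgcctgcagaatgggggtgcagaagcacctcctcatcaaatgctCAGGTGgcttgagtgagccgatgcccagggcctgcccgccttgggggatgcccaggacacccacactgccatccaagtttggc
ETS2: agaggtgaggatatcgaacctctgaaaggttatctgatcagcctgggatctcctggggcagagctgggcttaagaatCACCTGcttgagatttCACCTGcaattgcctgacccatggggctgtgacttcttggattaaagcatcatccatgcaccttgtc

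Signal over regions called in all 5 libraries differed between the lines at gene starts and more often at distal places. Of the 13515 start regions, 7403 (54.8%) were called in all 5 libraries, against 672 (12.5%) of the distal regions. With limma on the median-centred log2 signal and a Benjamini-Hochberg adjusted p under 0.05, 1209 start regions (16.3%) were higher in NALM6 and 1129 (15.3%) were higher in REH. The order turned without centring (823 and 974) and with the mean signal per base (382 and 489). Of the distal regions, 217 (32.3%) were higher in NALM6 and 175 (26.0%) were higher in REH. A difference of at least 2-fold was reached by 265 and 187 start regions and by 74 and 43 distal regions in the same order. The libraries of the lines did not overlap in 2310 of the 2338 start regions called and in all but 1 of the distal ones. Such separation largely follows from the call itself and is not separate support for it. The share over all tested regions is not given here. Fewer modified nucleosomes per cell and fewer cells carrying the mark cannot be told apart in such bulk libraries.

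**Figure D1:**
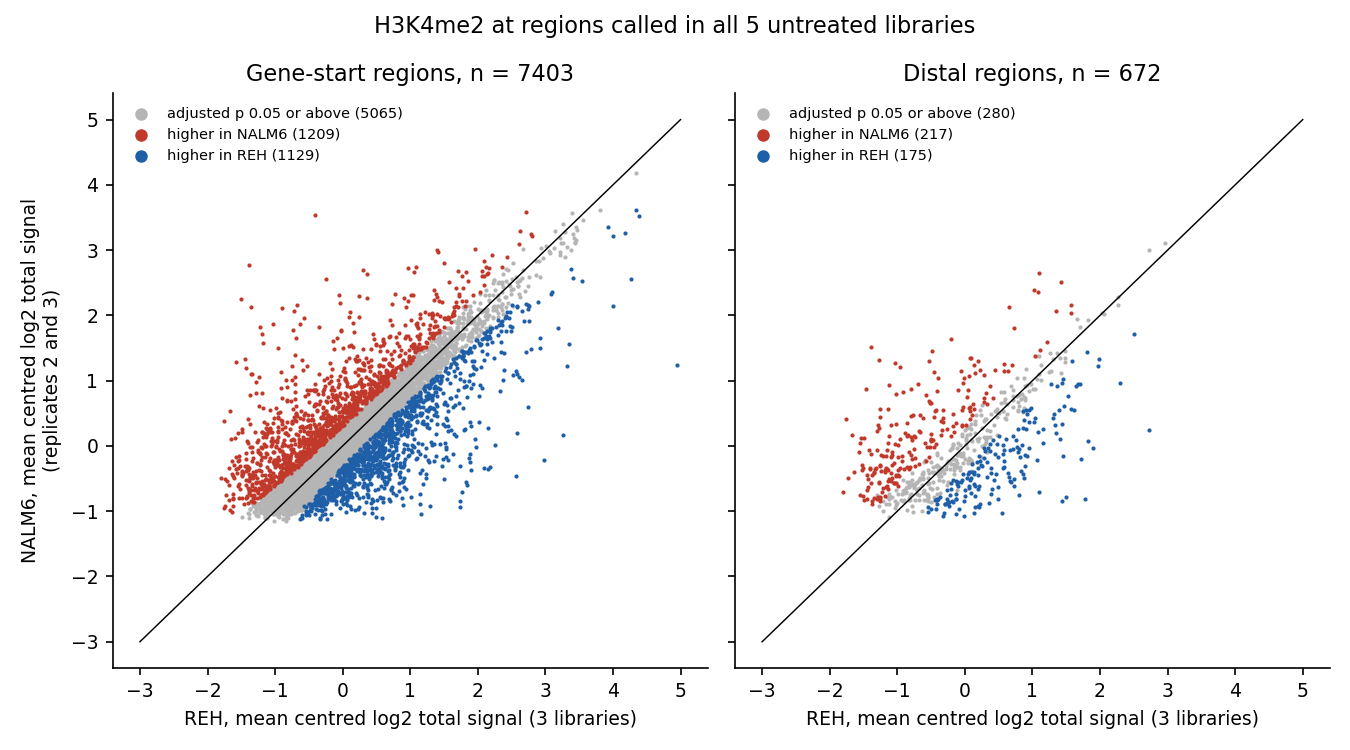
Mean median-centred log2 H3K4me2 signal of each region in REH (x axis, 3 libraries) and NALM6 (y axis, replicates 2 and 3) for the 7403 gene-start and 672 distal regions called in all 5 libraries, with the line of equality. The 1209 and 217 red points are higher in NALM6 and the 1129 and 175 blue points are higher in REH at an adjusted p under 0.05.

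The called stretch was, at the median, longer in the line with more signal. Start regions higher in REH had a median called length of 3790 bp in REH and 2725 bp in NALM6, and those higher in NALM6 had 2820 and 3125 bp. Tested start regions that were not called were also longer in REH, at 3007 against 2620 bp. The total is summed over the called stretch, so length and total are not separate results. The median log2 difference (NALM6 minus REH) of the regions higher in NALM6 was 0.59 for the total signal and 0.33 for the mean signal per base. For those higher in REH it was -0.56 and -0.42. Of the 1209 and 1129 start regions, 1038 and 984 kept their sign with the mean signal per base. Fewer passed the test on that scale, with 871 start regions and 147 distal regions called.

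Libraries that the comparison did not use gave the same direction for most regions. Cells of the same lines had also been given 1 nM bryostatin, a modulator of protein kinase C. In their H3K4me2 libraries, 1043 of the 1209 start regions higher in NALM6 could be tested, 1010 of these (96.8%) had the same sign and 876 passed. Of those higher in REH, 1120 could be tested, 1043 (93.1%) had the same sign and 835 passed. Among the start regions not called in untreated cells, 70.7% had the same sign. Of the distal regions, 120 of 142 higher in NALM6 (84.5%) and 160 of 165 higher in REH (97.0%) kept their sign, beside 72.4% of those not called. In untreated H3K4me3, 520 of 696 start regions higher in NALM6 (74.7%) and 595 of 758 higher in REH (78.5%) had the same sign, beside 58.4% of those not called. H3K4me3 passed in the opposite direction in 67 and 54 of them.

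The start regions with the largest differences toward NALM6 included F2RL3, ALDH3B1 and PTPN7. At F2RL3, which encodes the thrombin receptor PAR4, the region (chr19:16886431-16898450, also covering a start of CPAMD8) stood at 6.45 and 7.18 in NALM6 and at 0.41, 0.38 and 0.36 in REH. Both NALM6 libraries were far above all REH libraries. The log2 difference was 4.16 (SE 0.11, limma adjusted p = 1.18e-12). The aldehyde dehydrogenase gene ALDH3B1 had 3.16 and 3.97 in NALM6 and 0.47, 0.48 and 0.34 in REH. PTPN7, a tyrosine phosphatase of blood cells, had 3.97 and 4.76 against 0.71, 0.51 and 0.43. The differences were 3.06 and 3.02 on the log2 scale, and the groups did not overlap. Further large differences lay at a long non-coding RNA inside ELFN2 (3.96), at RASA4 and ENSG00000270249 (3.76), at IGLC7 (3.48) and at RNU6-327P inside CHFR (2.92). RASA4 has near-identical copies, so reads there may be shared. IGLC7 lies in the light-chain locus that B cells rearrange, and its difference did not pass with the mean signal per base (0.28, adjusted p = 0.454).

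ERG and ZIC2 were among the largest differences toward REH. The ERG start region (chr21:38471761-38500680), at the gene of an ETS-family factor of blood stem and progenitor cells, stood at 1.35 and 0.94 in NALM6 and at 9.11, 10.7 and 8.90 in REH. Every REH library was above both NALM6 libraries, and the log2 difference was -3.08 (SE 0.15, limma adjusted p = 4.62e-10). The called stretch covered 7180 and 1820 bp in NALM6 and 28750, 26240 and 18590 bp in REH, and the mean signal per base differed by -0.59 (adjusted p = 0.0836). The same region differed by -1.98 in treated cells and by -2.22 in H3K4me3. A pair of distal regions inside ERG was called in REH only, at levels of 0.33 to 0.65. ZIC2, a zinc finger factor of neural development, stood at 0.75 and 0.71 in NALM6 and at 5.62, 5.93 and 6.31 in REH. The lines were widely separated, with a log2 difference of -3.03 and one of -2.78 in H3K4me3. Next came STX1A (-2.58), a syntaxin, ZNF423 (-2.505), a zinc finger partner of EBF proteins, and SLC12A7 (-2.503), a potassium chloride cotransporter. LINC02891 (-3.20) and the small RNA genes RNA5S9 (-3.70) and RNU2-1 (-2.66) made up the rest, and the latter pair belongs to repeated gene arrays in which reads cannot be assigned with certainty.

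**Figure D2:**
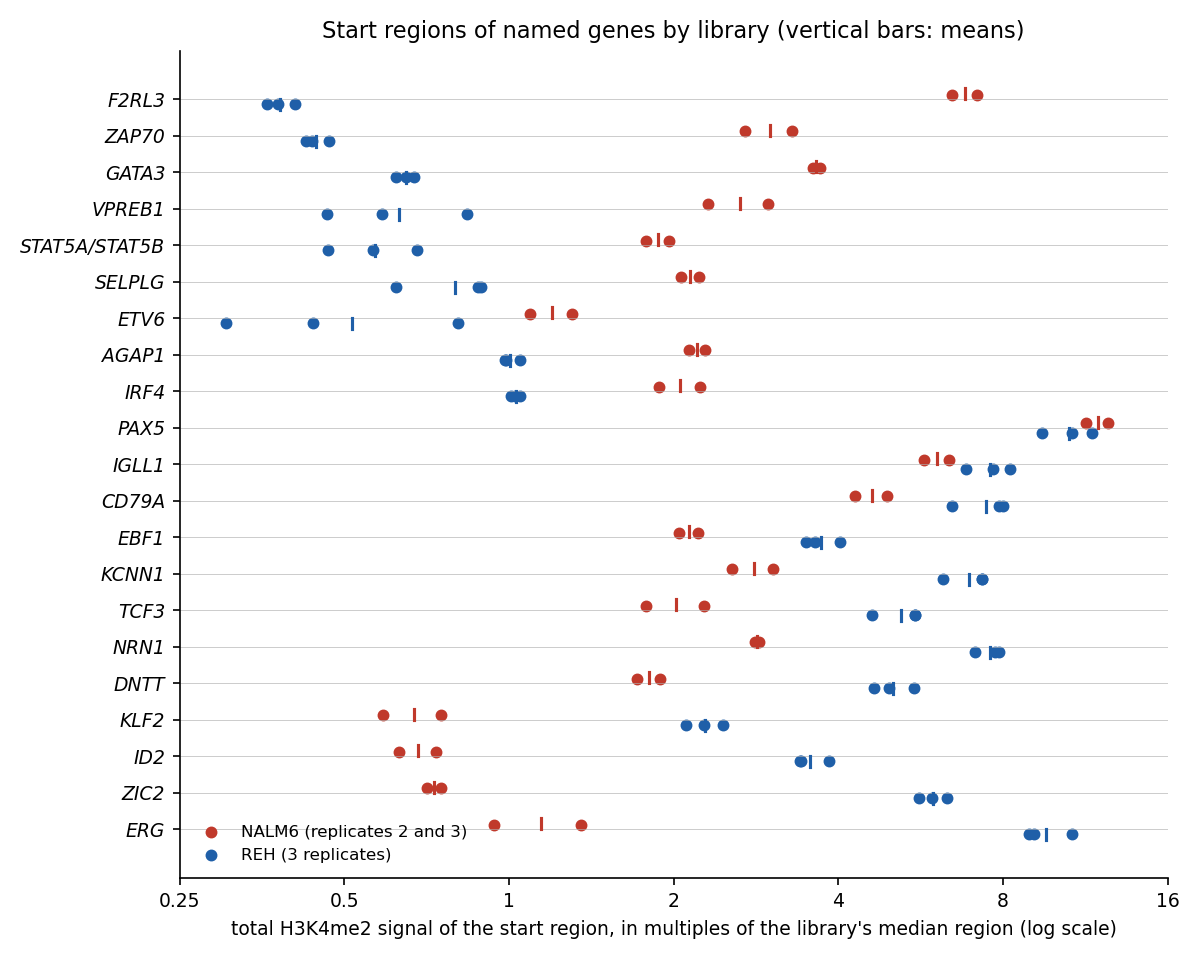
Total H3K4me2 signal of the start region of named genes in each library, in multiples of the library's median region on a log axis, with replicates 2 and 3 of NALM6 in red, the 3 REH libraries in blue and vertical bars at the means. The lines are apart at most genes, from F2RL3 (6.45 and 7.18 in NALM6) to ERG (8.90 to 10.7 in REH), whereas they lie close together at PAX5.

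Distal regions with a called level in both lines differed by up to 2.90 on the log2 scale toward NALM6. That region (chr20:63638721-63643530) lay 8864 bp from the start of STMN3, a stathmin-family gene, and stood at 2.70 and 3.03 in NALM6 and at 0.32, 0.39 and 0.45 in REH. A region inside PREX1 (chr20:48718991-48726140), which encodes an exchange factor for Rac, stood at 1.80 and 1.85 against 0.38, 0.41 and 0.31. Neither pair of groups overlapped. The other regions of this kind were nearest to BRF2 (2.60), SH3BP2 (2.30), SCN4A (2.18) and SERINC2 (2.17). Toward REH the largest differences lay near CCDC188 (-2.58), in GALNT2 (-2.47), in HDAC4 (-2.28), near LRFN2 (-2.27), in ZNF423 (-1.93) and in PTP4A3 (-1.92). The GALNT2 region did not pass with the mean signal per base (-0.74, adjusted p = 0.0855). The region inside HDAC4 (chr2:239263171-239269490), the gene of a class II histone deacetylase, stood at 0.61 and 0.51 in NALM6 and at 2.47, 2.94 and 2.72 in REH. ZNF423 had both a start and a distal region higher in REH.

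Regions called in 1 line only were more numerous in REH as deposited. At gene starts, 335 of 13515 regions (2.48%) were called in NALM6 replicates 2 and 3 and in no REH library, and 2138 (15.8%) in all 3 REH libraries and in no NALM6 library. The distal counts were 259 of 5386 (4.81%) and 1003 (18.6%). When peaks with a total signal under 433694, the highest weakest peak of any of the 5 libraries, were dropped from all 5, an alternative chosen after seeing the data, the start counts were 570 for NALM6 and 1045 for REH and the distal counts 342 and 292. Of the REH-only regions as deposited, 867 at starts and 235 distal had peaks of at least that total in every REH library, and these are called strong below. With the 9187 strongest peaks of each library the start counts were 777 and 1005, and the distal counts were 422 for NALM6 and 282 for REH. The larger distal count of REH was not seen with the common threshold or with equal numbers of peaks. It was still seen in the upper 0.5 of each library's peaks, with 126 for NALM6 and 265 for REH. The distal order thus depends on which peaks are kept. Without NALM6 replicate 2, the library with the highest weakest peak, the NALM6-only counts were 549 and 540. NALM6 replicate 1 also had a peak in 149 of the 335 start regions and 82 of the 259 distal ones.

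**Figure D3:**
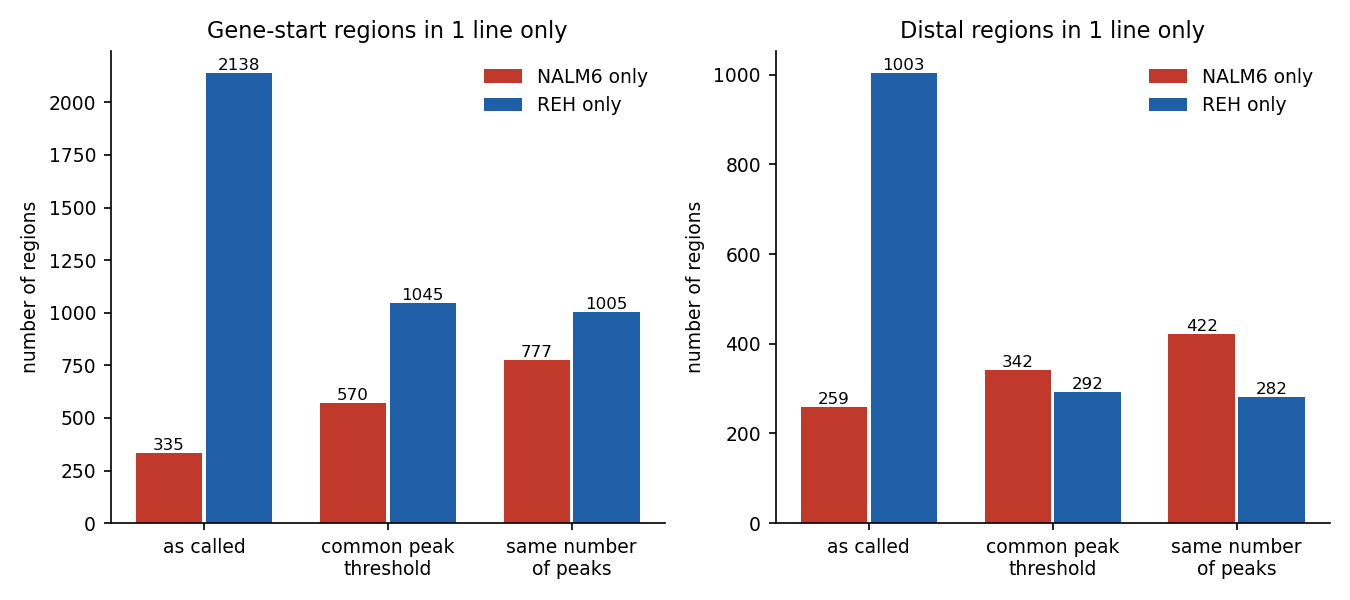
Number of gene-start (left) and distal (right) regions called in NALM6 only (red) or REH only (blue), as deposited, with peaks under a common total of 433694 dropped, and with 9187 peaks kept in each library. The distal order changes from 259 and 1003 as called to 342 and 292 with the common threshold and 422 and 282 with equal numbers of peaks.

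The strongest start regions of NALM6 alone were at PERCC1, B3GNT7, NSMCE1, NXN, TAGLN2 and PTCH1. PERCC1 (chr16:1427741-1437100) stood at 5.42 and 7.29 in NALM6, with no peak in any REH library. B3GNT7, a glycosyltransferase gene, stood at 4.85 and 5.34. NSMCE1, a subunit of the SMC5/6 complex, had 4.47 and 5.64. These levels are well above the weakest peak called in any REH library. The redox gene NXN (3.82 and 4.42), the actin-binding gene TAGLN2 (3.43 and 3.77) and PTCH1, the Hedgehog receptor (3.27 and 3.91), followed. In REH alone the strongest were ELFN1 (5.66, 6.59 and 6.99), a postsynaptic protein gene, and WNT11 (5.09, 6.10 and 6.62), a Wnt ligand. KCNN1, a potassium channel gene, had 3.93, 4.93 and 4.66 in a region at an internal start. ANKRD13D, KIF26B and HAP1 lay between 3.74 and 4.33. All 6 REH-only regions were also called in the 3 H3K4me3 libraries of REH, and ELFN1, WNT11, KCNN1, KIF26B and HAP1 were called for H3K27me3 in 2 NALM6 libraries each. WNT11 and KIF26B were also called for H3K27me3 in 3 REH libraries and HAP1 in 1. Among the NALM6-only regions, NXN and TAGLN2 were called for H3K27me3 in 3 REH libraries. PTCH1 was called for it in 3 NALM6 libraries and PERCC1 in 2.

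Other readouts separated the one-line regions in part. Of the 335 NALM6-only start regions, 329 (98.2%) were called in both treated NALM6 libraries with the same scaling, 289 (86.3%) in no treated REH library and 119 (35.5%) in both NALM6 H3K4me3 libraries. H3K4me3 was called in no REH library at 333 of them (99.4%). Of the 2138 REH-only start regions, 1410 (65.9%) were called in all treated REH libraries, 1563 (73.1%) in no treated NALM6 library and 604 (28.3%) in all REH H3K4me3 libraries. NALM6 H3K4me3 was called in both libraries at 523 of them (24.5%), so a share of these starts carried H3K4me3 in NALM6 without an H3K4me2 call. H3K27me3 was called in both NALM6 libraries at 472 REH-only starts (22.1%), beside 466 of the 7403 starts called in all 5 libraries (6.29%). H3K27me3 was also called in all REH libraries at 454 of the REH-only starts (21.2%), beside 282 of the 7403 (3.81%). At the NALM6-only starts it was called in both NALM6 libraries at 37 (11.0%) and in all REH libraries at 30 (8.96%). Of the REH-only distal regions, 201 (20.0%) had H3K27me3 in both NALM6 libraries and 86 (8.57%) in all REH libraries, beside 12.1% and 3.72% of the distal regions called in all 5. The shares of the NALM6-only distal regions were 13.1% and 4.63%. The Burkitt lymphoma line Raji, also B lineage, had H3K4me2 in all 3 untreated libraries at 84 of the NALM6-only starts (25.1%) and 591 of the REH-only starts (27.6%). It did so at 35 (13.5%) and 100 (9.97%) of the distal regions.

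Distal regions of 1 line gathered at some genes. In NALM6 only, 4 regions lay within AGAP1, which encodes an ARF-directed GTPase-activating protein, at mean levels of 0.51 to 0.97. The start region of AGAP1 stood at 2.13 and 2.28 in NALM6 and at 1.05, 0.98 and 0.99 in REH (log2 difference 1.13, limma adjusted p = 4.37e-07). Both NALM6 libraries were above the REH libraries there. PXDN, a peroxidasin gene, had 3 NALM6-only regions with mean levels of up to 2.86, and GSE1 had 3 with up to 1.87. A further 6 lay nearest to TMEM121 (chr14:105570781-106878400) in the immunoglobulin heavy-chain locus, where B cells rearrange their DNA, and 4 nearest to TPTE on the short arm of chromosome 21, where repeats make placement uncertain. In REH only, 4 distal regions were nearest to NRN1 (chr6:5734241-5869990), 3 of them inside the neighbouring FARS2, at 0.70 to 2.504. SH3RF3 and SH3PXD2A each had 4 inside the gene, EPHB3 had 4 and PLXNA1 had 3. Their mean levels ran from 0.33 to 1.08, and most were at or below 0.63, beside weakest called peaks of 0.52 and 0.39 in the NALM6 libraries. The highest distal level in REH alone was at a 20940 bp stretch inside NBDY (chrX:56761891-56782830), with 11.5, 13.9 and 13.4 and with H3K4me3 peaks in all 3 REH libraries.

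Next the genes of the B lineage were read, by the start region of highest level for each gene. Over all 19970 protein-coding genes annotated, 12499 had a start region and 8067 were tested, of which 1209 (15.0%) were higher in NALM6 and 1138 (14.1%) in REH. A further 164 (1.31%) and 1645 (13.2%) of the 12499 were called in NALM6 only and REH only. The median log2 difference of the tested genes was 0.02. Of 30 B lineage transcription factors, 25 were tested, 5 were higher in NALM6, 9 were higher in REH and 3 were called in REH only (1 of them, RUNX2, strong), with a median of -0.10. Of 22 surface and receptor genes, 19 were tested, with 6 and 4 higher, 1 in each line only and a median of -0.10. The 16 precursor B genes had 13 tested, 2 and 4 higher, 2 in REH only (1 of them, RAG2, strong) and a median of -0.16.

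PAX5, the factor that commits cells to the B lineage, had one of the highest levels in both lines. Its start region stood at 11.4 and 12.4 in NALM6 and at 9.41, 11.6 and 10.7 in REH, and the libraries overlapped (log2 difference 0.18, SE 0.18, limma adjusted p = 0.486). Quantile normalization gave 0.63, which passed. A distal region inside PAX5 (chr9:36993411-36998740) was called in NALM6 only, at 1.30 and 1.69 and in replicate 1 too. EBF1, which acts with PAX5, had neighbouring start regions that went opposite ways. One (chr5:159094491-159098630) stood at 2.41 and 2.67 in NALM6 against 1.21, 1.37 and 1.22, and the other (chr5:159099651-159107450) at 2.05 and 2.22 against 3.49, 4.02 and 3.63. The log2 differences were 1.00 and -0.80, and both passed (limma adjusted p = 2.32e-06 and 3.37e-05).

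TCF3, which encodes the E2A proteins, was higher in REH, at 2.27 and 1.78 in NALM6 and 4.60, 5.52 and 5.53 in REH (log2 difference -1.37). ID2, an inhibitor that binds E2A proteins, was higher in REH as well, with 0.63 and 0.74 against 3.40, 3.41 and 3.85 (-2.38, limma adjusted p = 2.88e-10). In both genes the lines were fully separated. KLF2, a factor of lymphocyte quiescence, differed by -1.78, with H3K27me3 peaks at the same region in 2 NALM6 and 3 REH libraries. The region shared by STAT5A and STAT5B, which act downstream of cytokine receptors, was higher in NALM6, at 1.78 and 1.96 against 0.47, 0.56 and 0.68 (1.73). IRF4, a factor of pre-B and plasma cells, was higher there too (1.00, but adjusted p = 0.0601 with the mean signal per base), and FOXO1 differed by 0.73. RUNX2 was called in REH only, at 1.86, 1.84 and 1.99.

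The fusion partners in REH, ETV6 and RUNX1, did not move together. At the ETV6 start, NALM6 had 1.30 and 1.09 and REH had 0.81, 0.44 and 0.30. The NALM6 libraries were above those of REH, with a log2 difference of 1.33 (limma adjusted p = 0.00104), although the mean signal per base differed by 0.42 (adjusted p = 0.182). A distal region inside ETV6 was also higher in NALM6 (0.77). RUNX1 had 3.81 and 4.50 in NALM6 and 3.95, 4.29 and 4.11 in REH at the start region of highest level (chr21:34882721-34893170), with overlapping libraries and a difference of 0.01 (SE 0.12, limma adjusted p = 0.966). This value depends on the scaling, since it was 0.46 (adjusted p = 0.00557) when each chromosome was centred on its own median and -0.02 in the fits with the replicate block or without REH replicate 1. Another RUNX1 start region (chr21:35043711-35049820) was higher in REH (-1.25), as was a distal one (-1.12), and 3 distal regions were called in REH only, at 0.45 to 0.94. Chromosome 21 as a whole lay lower in NALM6 than in REH, as described below.

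The genes of the pre-B cell receptor and of receptor assembly went both ways. VPREB1, a surrogate light chain gene, stood at 2.31 and 2.97 in NALM6 and at 0.84, 0.46 and 0.59 in REH (log2 difference 2.10, limma adjusted p = 2.91e-07), in a locus that B cells rearrange. IGLL1, its partner, stood at 5.74 and 6.36 against 6.83, 8.24 and 7.66, with no overlap but a difference of -0.32 that did not pass (adjusted p = 0.103). It passed without centring (-0.35) and with the replicate block (-0.39). DNTT, the polymerase that adds bases at rearranged joints, was higher in REH, at 1.71 and 1.89 against 4.95, 5.49 and 4.64 (-1.48, limma adjusted p = 7.97e-08). The start of RAG2, a subunit of the recombinase, was called in REH only, at 1.82, 2.15 and 1.46, whereas the RAG1 start was higher in NALM6 (0.42), a call lost with the mean signal per base (adjusted p = 0.135). BMP3 was called in REH only, at 0.43 to 0.58, and was not strong.

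CD22, a surface antigen at which the study aimed CAR-T cells, had 1.33 and 1.54 in NALM6 and 1.65, 2.14 and 2.02 in REH at the main start (log2 difference -0.43, limma adjusted p = 0.0136), and all REH libraries were above those of NALM6. That call was lost with the mean signal per base (adjusted p = 0.0974), without NALM6 replicate 2 (0.134) and without REH replicate 2 (0.0928). An upstream CD22 start region had 0.65 and 0.39 against 1.03, 1.22 and 1.16 (-1.16, limma adjusted p = 6.21e-05). CD79A, a signalling chain of the B cell receptor, was higher in REH (-0.69), and CD52 and CD72 were higher in NALM6 (0.68 and 0.53), both lost with the mean signal per base (adjusted p = 0.273 and 0.283). CD37 was called in REH only, at 0.30 to 0.55, and was not strong. The 13 MHC class II genes, of which 7 were tested, had none called in either direction and a median of -0.05. Of 20 mature B and germinal centre genes, 8 were tested, with 3 higher in NALM6, 1 higher in REH and 1, CD86, in REH only but not strong.

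Genes that mark the leukemia types of the lines were uneven. Of 18 genes known from ETV6::RUNX1 leukemia, 10 were called in REH only and 3 of the 5 tested were higher in REH, with 1 higher in NALM6. The levels summed over the loci of this list reached 25.3 and 29.6 in NALM6 but 72.4, 79.3 and 77.3 in REH. Such sums also lay higher in REH for most other lists, with 28.7 and 24.8 against 30.4 to 32.6 for housekeeping genes. Of the 10, 9 were strong, beside 867 of all 2138 REH-only start regions. The share over all REH-only genes was not counted. NRN1, a neuritin gene, stood at 2.81 and 2.87 in NALM6 and at 7.10, 7.73 and 7.87 in REH (-1.41, limma adjusted p = 2.52e-07). The upstream KCNN1 region had 2.56 and 3.04 against 6.20, 7.31 and 7.32 (-1.31). IGF2BP1, an RNA-binding protein gene, was called in REH only at 2.66, 3.08 and 2.90, PCLO at 2.74, 2.94 and 1.58, FUCA1 at 2.02, 2.12 and 1.91, and EPOR, the erythropoietin receptor gene, at 1.73, 1.63 and 2.09. Of the 12 genes of DUX4-type leukemia, 6 were tested, with 3 higher in NALM6 (AGAP1, CHST2 and PTPRM), 2 higher in REH (ERG and TLE4) and 5 with no start region. With the mean signal per base CHST2, PTPRM and TLE4 did not pass (adjusted p = 0.431, 0.873 and 0.38), and the signs of CHST2 and TLE4 turned. DUX4 itself lies in repeats and had no start region.

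HOX genes and their partners were called almost only in REH. Of the 30 genes, 10 had a start region in REH only, in 8 separate regions, 16 had none, and PBX3 was the only one tested (0.30, higher in NALM6, but -0.02 with the mean signal per base). Of the 10, 7 were strong, beside 867 of all 2138 REH-only start regions. HOX genes set position along the body axis and are used again by blood progenitors. The region shared by HOXA3 and HOXA6 (chr7:27147291-27152280) stood at 2.59, 2.79 and 2.99 in REH, HOXA9 at 1.36, 1.56 and 1.54, HOXA13 at 1.58, 1.59 and 1.77, and HOXA4 at 1.46, 1.35 and 1.52. HOXC4 had 1.65, 1.78 and 1.68. Neither NALM6 library had a peak in these regions. H3K27me3 was not called at the named HOXA starts in either line, whereas it was called at HOXC4 in all 3 NALM6 libraries and in no REH library.

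Of 18 cytokine and growth factor receptor genes, 8 were tested, with 2 higher in NALM6 and 1 higher in REH, and EPOR, KIT and FLT3 were called in REH only. KIT and FLT3, receptors of early progenitors, stood at 1.74, 1.52 and 1.55 and at 1.21, 1.17 and 1.06. All 3 genes were strong, beside 867 of all 2138 REH-only start regions. Of 21 leukocyte adhesion and homing genes, 13 were tested, with 4 higher in NALM6 and 1 higher in REH. SELPLG, the ligand of the selectins, stood at 2.06 and 2.22 in NALM6 and at 0.88, 0.89 and 0.62 in REH (1.45, limma adjusted p = 9.27e-07). The NALM6 libraries were clearly apart. Of 15 genes often deleted in leukemia, 9 were tested, with 1 higher in NALM6 and 3 higher in REH. MSH6, a mismatch repair gene, had 0.83 and 0.43 against 1.91, 1.95 and 1.39 (-1.54), and TBL1XR1 was called in REH only but not strong. Of 16 housekeeping genes, 13 were tested, with 2 higher in NALM6, 1 higher in REH and a median of 0.05, and PGK1 on chromosome X was called in REH only at 0.38 to 0.53, and was not strong.

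**Figure D4:**
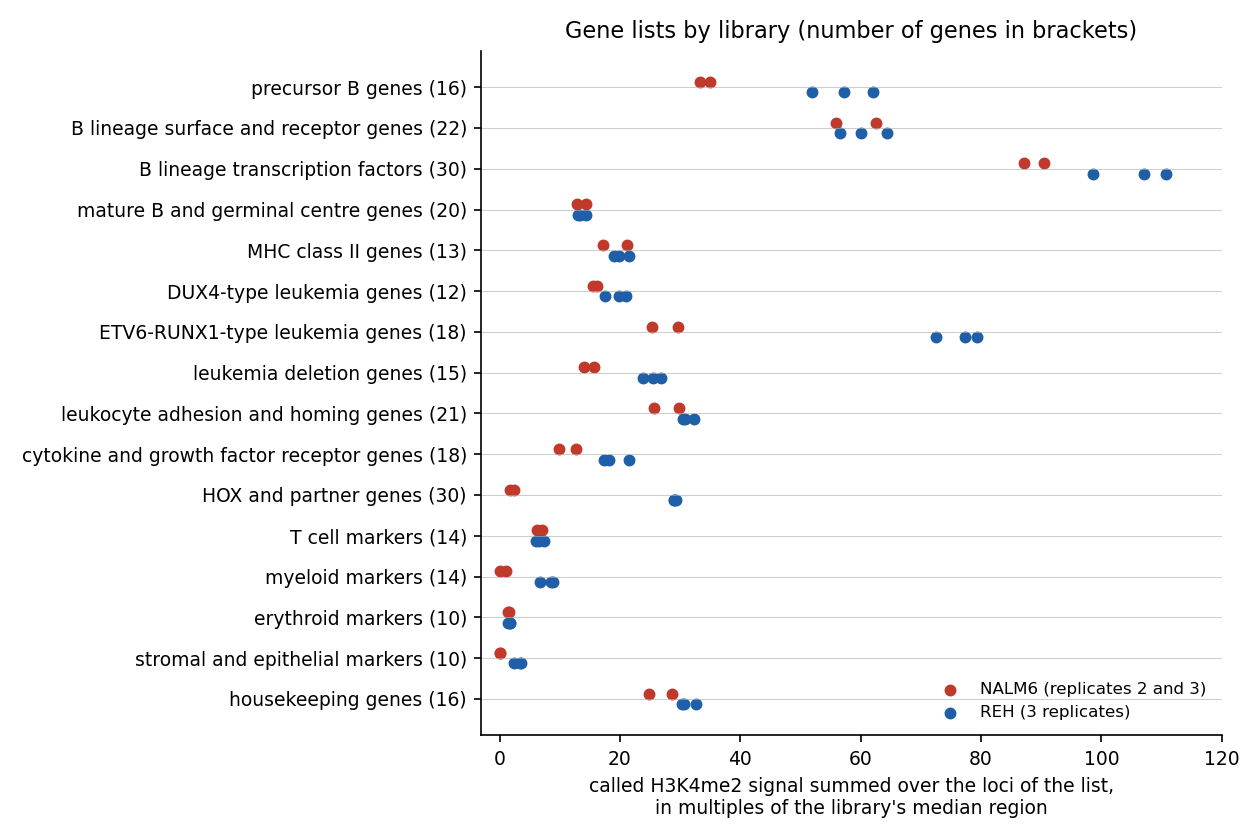
Called H3K4me2 signal summed over the loci of each gene list in each library, in multiples of the library's median region, with NALM6 in red and REH in blue. The ETV6::RUNX1-type and HOX lists are far apart between the lines (25.3 and 29.6 against 72.4 to 79.3, and 1.74 and 2.33 against 29.0 to 29.3). Most other lists also lie higher in all REH libraries, housekeeping genes included (28.7 and 24.8 against 30.4 to 32.6). The MHC class II and T cell lists are among those that overlap, and no list lies apart toward NALM6. Neighbouring genes of a cluster can share peaks, which then count once for each gene.

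Markers of other cell types were mostly without a start region. No erythroid marker of 10 had one. Of 14 T cell markers 5 had one, with CD3D, CD3E, CD3G, CD5 and CD7 among those without. GATA3 stood at 3.59 and 3.70 in NALM6 and at 0.65, 0.62 and 0.67 in REH (log2 difference 2.49, limma adjusted p = 1.46e-10), and ZAP70, a kinase also seen in B-precursor leukemia, at 2.70 and 3.29 against 0.47, 0.44 and 0.42 (2.75). The other 3 were called in REH only, 2 of them strong, led by BCL11B at 2.58, 2.89 and 3.10. The T cell list summed to 6.29 and 6.99 in NALM6 and to 5.99 to 7.45 in REH. Of 14 myeloid markers, CSF1R (2.65, 2.62 and 2.14) and ITGAM were called in REH only (ITGAM not strong), no marker was called in all 5 libraries, and CD14, LYZ, S100A8 and S100A9 had no start region. This list summed to 0 and 1.12 in NALM6 and to 6.75 to 8.82 in REH. Of 10 stromal and epithelial markers, COL1A1 and PDGFRB were called in REH only, with sums of 0 in both NALM6 libraries and 2.44 to 3.52 in REH. The part of other cell types in the differences was not tested.

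Differences ran in stretches on a few chromosomes. Chromosomes were described by their median log2 difference, which was near 0 except for chromosome 3 (0.15) and chromosome 21 (-0.38). Both stretches below were chosen after their values were seen. On chromosome 3 from 35 to 60 Mb, 118 of 120 tested regions were above 0, 109 were called higher in NALM6 and 1 higher in REH. The median levels there reached 1.18 and 1.20 in NALM6 but 0.56, 0.59 and 0.60 in REH, and the median log2 difference was 0.98 (quartiles 0.76 and 1.20). It was 0.99 over 89 regions in treated cells and 0.91 over 68 regions for H3K4me3. The rest of chromosome 3 had a median of 0.04 over 293 regions, with 43 and 44 calls. On chromosome 21, 52 of 97 regions were higher in REH and 18 in NALM6, and the median levels came to 1.02 in both NALM6 libraries and to 1.33, 1.41 and 1.44 in REH. Its median was -0.28 in treated cells and -0.37 for H3K4me3. The number of copies of these chromosomes was not measured, and its part in the differences was not tested.

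Of 270 windows of 5 Mb with at least 10 tested regions, 10 had a median of at least 0.3 in either direction. Besides 4 on chromosome 3 from 35 to 55 Mb, windows lay higher in NALM6 on chromosome 10 from 45 to 50 Mb (0.36), on chromosome 16 from 20 to 25 Mb (0.35) and on chromosome X from 0 to 5 Mb (0.73). Windows on chromosome 21 from 35 to 40 Mb (-0.61) and from 40 to 45 Mb (-0.44) and on chromosome 22 from 50 to 55 Mb (-0.41) lay lower. ERG and the RUNX1 start region that was higher in REH are in the first of these. Outside the shifted windows, 1292 regions were higher in NALM6 and 1253 higher in REH of 7850 tested.

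Regions called in 1 line only differed in sequence. Motifs were searched by their letters on both strands in 1000 bp at the centre of each region, and a match describes letters only. The E-box CAGGTG was in 84.2% of the NALM6-only distal regions and 62.6% of the REH-only ones, beside 65.0% of all distal regions. In the strong REH-only regions the share was 64.7%. Among distal regions called in all 5 libraries the shares were close, at 71.4% of those higher in NALM6, 69.1% of those higher in REH and 69.3% of all. At gene starts it was in 76.7% and 59.5%, beside 60.7% of all start regions. Among start regions called in all 5 libraries it was in 67.8% of those higher in NALM6, 60.4% of those higher in REH and 60.1% of all. In the central 300 bp the distal shares were 45.2% and 26.5%, beside 28.4% of all. For distal regions called in all 5 libraries they were 40.1% (higher in NALM6), 34.9% (higher in REH) and 34.2% (all). The start regions called in all 5 had 30.4%, 24.1% and 25.1% in the same order. The palindromic E-box CAGCTG was in 69.1% and 56.3% of the distal regions, beside 56.5%. The DUX4 core TAANNNAATCA was in 3.86% of the NALM6-only distal regions, 2.99% of the REH-only ones and 3.69% of all. The RUNX motif TGTGGTT was in 19.3%, 18.7% and 22.7%, and the GATA motif AGATAA in 23.6%, 28.2% and 32.8%. The EBF motif TCCCNNGGGA was in 8.11%, 6.28% and 6.68% of the distal regions in the same order, and in 8.33% of those called in all 5 libraries. At gene starts it was in 9.55% (32 of 335), 5.19% and 5.54%.

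Base composition also differed. The NALM6-only start regions had a median of 34 CG in 1000 bp and the REH-only ones 62.5, beside 59 over all start regions, and the strong REH-only ones had 79. Of the distal regions, the NALM6-only ones had a median GC content of 57.2% and the REH-only ones 53.4% (55.5% in the strong ones), beside 51.5% over all. The distal regions called in all 5 libraries had 57.5%, with the E-box in 69.3% of them. The NALM6-only distal regions, which held the E-box more often, were thus richer in GC than all distal regions. They were not richer in GC than the distal regions called in all 5. The part of base composition in the motif shares was not tested.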

How the data were processed

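Peaks of untreated H3K4me2 in NALM6 and REH were read as deposited. Per the authors' methods and the submitters' processing notes, reads were trimmed with Trim Galore, aligned to hg38 with Bowtie2, scaled to RPKM and given to SEACR. The deposited columns are the total signal and the maximum signal of each peak, that is the coverage summed over its bases and its highest value. Mapped reads were computed from the smallest step between signal values. A missing peak gives no value, and the number of reads per peak is unknown. IgG libraries were not used here.

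Peaks overlapping by 1 bp or more were merged with pandas 2.3.3. Gene starts and names came from GENCODE 44 and promoter sequences from RefSeq (GRCh38.p14). Region values (log2 of the peak totals added up, minus the library median) entered a limma 3.58.1 fit (R 4.3.3, trended eBayes) over all regions called in all 5 libraries, with Benjamini-Hochberg adjustment at 0.05. The script was tested on simulated data. The same fit was made in treated H3K4me2 and in untreated H3K4me3. Regions in 1 line only and sequence features were counted without a test.

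The regions and lists were chosen with earlier results of these data known. Genes named are the 8 start and 6 distal regions of largest difference per direction among those called with separated groups, the 6 strongest one-line regions per class and line, up to 6 members of each list with a difference of 2-fold or a call in 1 line only, the 5 genes with most one-line distal regions, and CD22, PAX5, EBF1, ERG, RUNX1, ETV6 and IGLL1. Further list members named were chosen after their values were seen. Some items chosen by these rules are not reported here. Alternatives changed the signal column, centring, regions, starts, peaks kept, the replicate block and the libraries.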

Additional observations from a re-analysis of the deposited data

How the results depend on the processing

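Of 541 values of 46 named regions under the alternatives, 522 kept their direction and their side of the threshold, 7 lost and 6 gained the call, and 6 turned sign. Most of the 46 were chosen for large differences, so this count does not measure how stable calls are in general. It leaves out further list members, among which RAG1, IRF4, CD52, CD72, CHST2, PTPRM and TLE4 lost the call with the mean signal per base. The 2338 start and the distal calls became 1517 and 250 with the maximum signal, 871 and 147 with the mean signal per base, 472 and 89 with NALM6 replicate 1 added (of 4560 and 342 regions tested), and 452 and 117 at 2-fold. The distal calls were 168 in the upper 0.5 of regions and 614 when only protein-coding starts defined the classes. Leaving out 1 library gave 1754 to 2455 start and 339 to 445 distal calls. Leaving out the shifted windows gave 2165 and 380. The NALM6-only counts of 335 and 259 became 777 and 422 with equal numbers of peaks and 149 and 82 if also called in replicate 1, and ranged from 335 to 549 and from 259 to 540 when a library was left out. The distal one was 126 in the upper 0.5 of peaks. The REH-only counts of 2138 and 1003 became 1005 and 282 with equal numbers, 1311 and 265 in the upper 0.5 of peaks and 867 and 235 with a peak in each REH library at or above the weakest of NALM6 replicate 2. With that total as a common threshold the start counts were 570 and 1045 and the distal counts 342 and 292. The causes were not tested.

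The 5 libraries fitted share replicate numbers 2 and 3 only. Deviations of same-numbered libraries correlated at 0.0169 and 0.278, and those of NALM6 replicate 2 and REH replicate 1 at 0.291. With 2 NALM6 libraries the deviations mirror each other, so these values can neither show nor exclude pairing. The numbers were read as names only. The fit with the replicate block called 2498 start and 402 distal regions. REH replicate 1 has no NALM6 partner in that fit. Its differences are therefore those found without REH replicate 1 (F2RL3 4.202 in both), and the pair are not separate checks. IGLL1 turned to 0.19 with the maximum signal. RUNX1 turned to -0.24 with the maximum, -0.0253 without centring and -0.0216 with the block, and ranged from -0.11 (without NALM6 replicate 3) to 0.15 when a library was left out (-0.0216 without REH replicate 1). Low peaks in NALM6, whose weakest call lay above that of REH, limit every count of REH-only regions.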

Other observations

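At some start regions, chosen after their values were seen, H3K4me2 and H3K4me3 gave different results. SOCS2 and BCL6 passed in opposite directions, whereas CBFA2T3 and BLNK had the same sign in both marks and passed in H3K4me3 only. SOCS2, a suppressor of cytokine signalling, differed by -0.78 (NALM6 minus REH, log2) in H3K4me2 and by 2.10 in H3K4me3 (limma adjusted p = 5.1e-05 and 1.05e-06). BCL6, a repressor used by germinal centre and pre-B cells, differed by 0.50 and -1.03 (limma adjusted p = 0.00271 and 0.00624). CBFA2T3, a corepressor gene, had overlapping H3K4me2 levels of 7.39 and 8.27 in NALM6 and 8.02, 10.0 and 9.89 in REH, with a difference of -0.25 (limma adjusted p = 0.272). Its H3K4me3 differed by -2.11 (limma adjusted p = 6.85e-07). BLNK, an adaptor of the pre-B cell receptor, differed by -0.24 in H3K4me2 (limma adjusted p = 0.19) and by -1.63 in H3K4me3 (limma adjusted p = 7.79e-05).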
